A study of Drosophila melanogaster with 16 samples.

Results

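A set of 10 genes of the machinery that releases synaptic vesicles was followed through an EC-tagging pulse-chase of Drosophila larval brains. They are Syt1, nSyb, Syx1A, Snap25, brp, cac, unc-13, Rim, cpx and Rab3, and they were chosen by name for their role, with earlier results of these data known. They make up 10 of 14353 genes and 92 of the 30944 transcripts counted for both cell types. All 92 transcript rows were used, singly and summed per gene, and 10 of them had no counts in any library.

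EC-tagging expresses a fusion of cytosine deaminase and uracil phosphoribosyltransferase (CD:UPRT) in chosen cells, where it turns fed 5-ethynylcytosine (5EC) into a tagged uridine that enters new RNA. UAS-CD:UPRT was driven by insc-Gal4 in neuroblasts and other neural progenitors or by nSyb-Gal4 in neurons of L3 larvae, and all 16 libraries come from larvae that were fed 5EC for 12 h. The pulse libraries were taken at the end of that feeding, and the chase libraries after a further 3, 6 or 12 h on uridine without the tag. Each of the 8 groups has 2 libraries, numbered 1 and 2. The methods describe 3 independent feedings and duplicate RNA samples for biotinylation, and neither they nor the labels say which of these the 2 libraries are, so p-values measure the spread between libraries, which may be technical. The cell type rests on the driver alone. The nSyb-Gal4 driver takes its pattern from 1 of the 10 genes described here, and the dissection of the nervous system is described as crude. In tagged RNA of a tissue, fewer cells of a type and less RNA per cell cannot be told apart.

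At a synapse, vesicles fuse with the plasma membrane when a vesicle protein of the SNARE family coils around partner SNAREs of the target membrane. Synaptotagmin senses the calcium that enters through voltage-gated channels, complexin clamps and helps the SNARE bundle, and a protein scaffold called the active zone holds channels and vesicles together. The machinery is a hallmark of differentiated neurons, while neuroblasts are dividing stem cells. The pulse-chase asks how the tagged RNA of each gene changes after labelling stops, and the 2 drivers ask where it is found.

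Coordinates of the genes are on BDGP6.54, the Ensembl version of the BDGP6 assembly that the study used. The SNARE genes are nSyb (synaptobrevin, the vesicle SNARE, chromosome 3L from 1630348 to 1637752, minus strand), Syx1A (syntaxin, a target membrane SNARE, chromosome 3R from 24101600 to 24105763, minus strand) and Snap25 (its SNARE partner, chromosome 3L from 24074180 to 24299205, plus strand). Fusion is regulated by Syt1 (synaptotagmin, chromosome 2L from 2772327 to 2799979, minus strand) and cpx (complexin, chromosome 3R from 4280221 to 4304604, plus strand). The active zone genes are brp (Bruchpilot, the main scaffold protein, chromosome 2R from 9503765 to 9541565, plus strand), cac (the pore-forming subunit of the presynaptic calcium channel, chromosome X from 11931280 to 11985087, minus strand), unc-13 (which primes vesicles for fusion, chromosome 4 from 867824 to 912331, minus strand) and Rim (a scaffold that binds Rab3, chromosome 3R from 17872748 to 17916578, minus strand). Rab3, a small GTPase of the vesicle surface, lies on chromosome 2R from 10721335 to 10729203 on the minus strand. Exons of Syx1A overlap those of eIF4EHP on the same strand, exons of Syt1 a transposon insertion on the other strand, and exons of unc-13 CR43361, the antisense RNAs asRNA:CR43425 and asRNA:CR44029 and several transposon insertions. Reads of such stretches cannot be assigned to 1 gene with certainty, and for overlaps with the other strand the sources used here do not say whether counting kept the strand.

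Libraries differed in depth and content. Totals ran from 11053940 to 31680744 estimated counts in neuroblasts and from 44317916 to 211109570 in neurons, where a higher total did not mean that more genes were found. In neuron replicate 1 mitochondrially encoded genes took 86.3% to 92.1% of the counts, against 2.75% to 11.9% in neuron replicate 2 and 9.67% to 12.8% in neuroblasts. The Wilson 95% intervals of these shares are at most 0.0384 percentage points wide and cover counting error only. Neuroblast 12 h chase replicate 1 held at least 10 counts for 1868 genes, against 6308 to 10359 in the other 7 neuroblast libraries. Neuron replicate 1 and this neuroblast library therefore stand apart, and results that rest on them are also given without them. Levels are given as CPM (counts scaled to a common library total), and, because of the mitochondrial share, also as CPM of nuclear counts.

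In neuroblast libraries all 10 genes were present, and up to 6 h of chase their replicates lay closer together than those of a typical gene. Each had at least 10 counts in 7 of the 8 libraries, and 4 of 10 did in 12 h chase replicate 1. The summed level of the 10 genes in replicate 1 was 2805 CPM at the pulse, 2544 CPM after 3 h, 1495 CPM after 6 h and 341 CPM after 12 h. In replicate 2 the same sum was 1716, 1629, 920.1 and 781 CPM. Both replicates were thus lower at each step. The median difference between replicates was 0.57, 0.61 and 0.55 on a log2 scale (with 1 CPM added) at the pulse, 3 h and 6 h, against 1.44, 1.53 and 1.71 over all genes. At 12 h it was 4.55 for the 10 genes and 2.98 for all genes. All genes here means those with at least 10 counts in either replicate. They include genes with few counts, and they were not matched to the 10 genes by level.

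Per transcript length, in TPM (counts divided by transcript length and scaled to a common total), cpx was the highest of the 10 in neuroblasts, with a median of 147 TPM over 8 libraries and a range of 92.3 to 312 TPM. Rim was the lowest, with a median of 8.73 TPM and a range of 0.0292 to 21.7 TPM. Between them the medians ran in the order Syx1A (81.9 TPM), Syt1 (63.4 TPM), nSyb (62.1 TPM), unc-13 (60.7 TPM), Snap25 (34.9 TPM), cac (20.8 TPM), brp (18.1 TPM) and Rab3 (16.8 TPM). The ranges of all neighbours in this order overlapped across the 8 libraries.

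**Figure D1:**
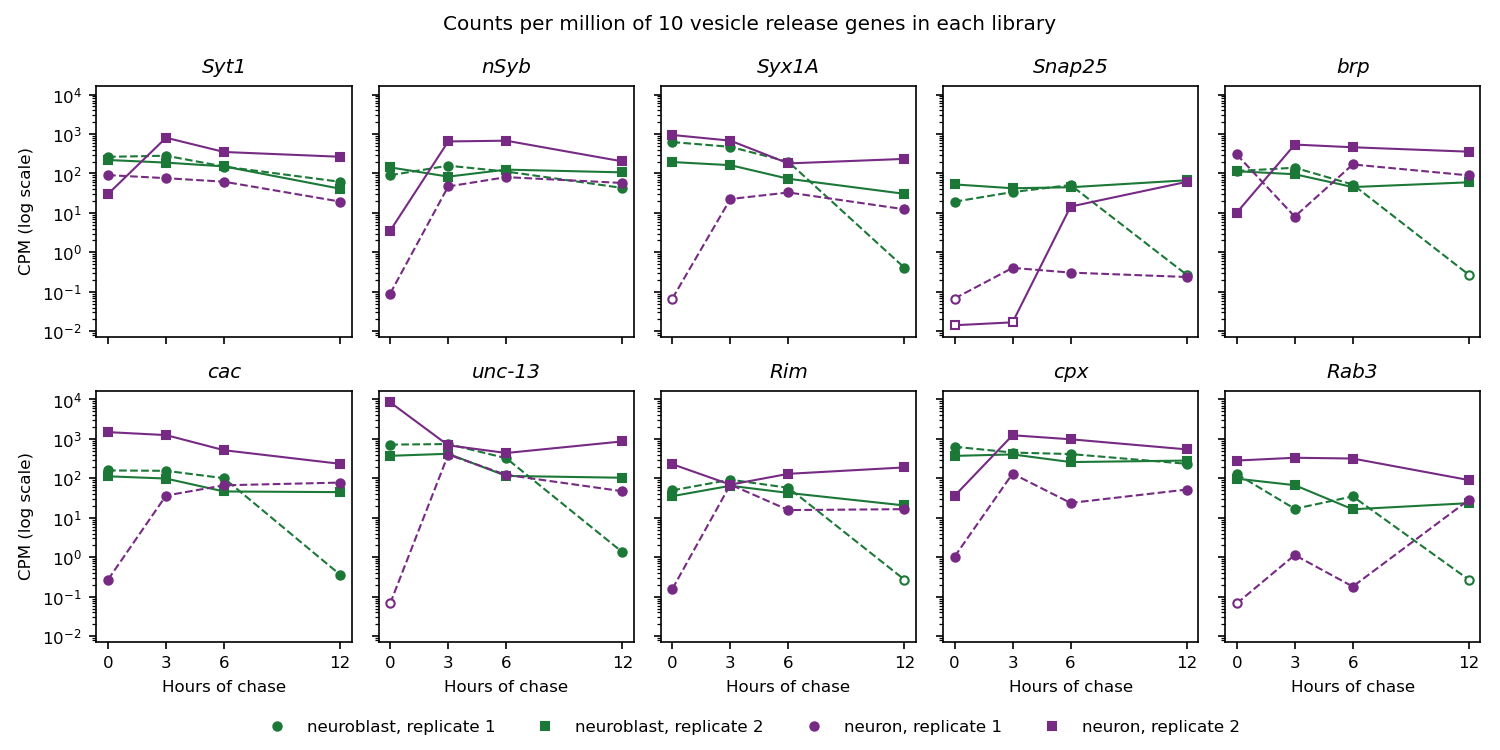
CPM of each gene (log axis) against hours of chase, with 0 as the end of the pulse, 1 point per library. Green is neuroblast and purple is neuron, circles with dashed lines are replicate 1, squares with solid lines are replicate 2, and open symbols at the level of 3 counts are libraries below 3 counts. Neuroblast replicates run close together until 12 h, where most genes of replicate 1 drop, while neuron replicates lie far apart.

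Of the SNARE genes in neuroblasts, only Syx1A was lower in CPM in both 12 h libraries than in both pulse libraries. It had 625, 473, 197 and 0.407 CPM in replicate 1 in order of time, and 195, 162, 73.3 and 30.5 CPM in replicate 2. nSyb had 90.2, 157, 112 and 43.0 CPM in replicate 1 and 143, 83.1, 125 and 107 CPM in replicate 2. Snap25 had 19.3, 33.7, 51.0 and 0 CPM in replicate 1, where a count of 0 allows up to 0.271 CPM (3 counts), and 52.8, 42.2, 44.7 and 67.2 CPM in replicate 2. For both genes the 12 h libraries overlapped the pulse libraries, and Snap25 was highest at 12 h in replicate 2 and undetected there in replicate 1.

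The regulators of fusion were found in every neuroblast library. Syt1, the calcium sensor, had 264, 282, 149.6 and 61.4 CPM in replicate 1 and 219, 188, 151 and 41.1 CPM in replicate 2. cpx had 635, 451, 414 and 234 CPM in replicate 1 and 372, 405, 259 and 283 CPM in replicate 2. These 2 genes and nSyb had 475 to 2592 counts in 12 h chase replicate 1, where unc-13 had 15 and the remaining 6 genes had under 10. For Syt1 and for cpx both 12 h libraries lay below both pulse libraries.

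Of the active zone genes, unc-13, cac and brp were lower than at the pulse from 6 h on, and Rim was not. unc-13 had 718, 742, 325 and 1.36 CPM in replicate 1 and 374, 421, 115 and 104 CPM in replicate 2. cac had 159, 156, 101 and 0.362 CPM in replicate 1 and 113, 99.1, 46.6 and 44.9 CPM in replicate 2. brp had 115, 139.9, 52.4 and 0.181 CPM in replicate 1 and 114, 95.5, 45.2 and 59.7 CPM in replicate 2. In these 3 genes the 6 h and 12 h libraries lay below both pulse libraries. Rim peaked at 3 h in both replicates, with 49.8, 92.6, 57.8 and 0.181 CPM in replicate 1 and 35.5, 65.1, 42.8 and 20.6 CPM in replicate 2. Rab3 was lower in every chase library than in either pulse library, with 129, 16.9, 35.0 and 0 CPM in replicate 1 and 98.3, 67.4, 16.5 and 23.6 CPM in replicate 2.

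In total 8 of the 10 genes had both 12 h libraries below both pulse libraries in CPM, the exceptions being nSyb and Snap25. The same held for 40.8% of 11294 genes with at least 10 counts over the neuroblast libraries, so the fall in CPM was common. TMM scaling, which sets libraries to a common level by the bulk of their genes, took up part of this shared fall. Its factors went from 1.36 and 1.58 at the pulse to 0.370 and 0.624 at 12 h. On that scale a slope is a change relative to other genes, and 30.7% of all genes tested had a slope above 0. edgeR's quasi-likelihood test on hours of chase in neuroblasts called 0 of the 10 genes at an adjusted p-value (Benjamini-Hochberg) under 0.05, beside 60 of 10016 genes (0.599%), all of them rising. Of the 10 genes, 2 had an unadjusted p under 0.05 by edgeR, beside 809 of 10016 genes. DESeq2 called 3 of 10 (nSyb and cpx rising, Syx1A falling) beside 11.4% of genes.

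Syx1A had the steepest slope in neuroblasts, -0.31 log2 per hour (SE 0.11, edgeR adjusted p = 0.360), and unc-13 followed with -0.20 (SE 0.098, adjusted p = 0.611). The other slopes were -0.16 for Rab3, -0.12 for cac, -0.10 for Rim, -0.07 for brp, -0.05 for Syt1, 0.06 for cpx, 0.08 for nSyb and 0.11 for Snap25 (SE 0.073 to 0.18). The median of the 10 was -0.08 and that of all genes -0.10. Under DESeq2 size factors Syt1 turned to 0.19. Without neuroblast 12 h chase replicate 1, the sparse library, 0 genes of the whole table were called (0 of the 10, with 2 at an unadjusted p under 0.05), and brp (0.0041) and Rim (0.013) changed sign. Without replicate 2, which leaves 1 library per time point including the sparse 12 h library, Syx1A was at -0.71 and unc-13 at -0.61. Without replicate 1 they were at -0.13 and -0.07.

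Markers of muscle and fat body were among the calls of the same test, all of which were lost without the sparse 12 h library. Of 8 muscle markers 6 passed (among them Mlc2, a myosin light chain, 0.23 log2 per hour, SE 0.047, edgeR adjusted p = 0.00226; up, a troponin T, 0.22; Act57B, a muscle actin, 0.22), and of the 6 fat body markers tested 2 did (the larval serum proteins Lsp1gamma, 0.24, and Lsp1beta, 0.23). The 8 muscle markers summed to 24496 to 119580 CPM in neuroblast libraries, with 0 of them at 0 counts in any, and to 16.1 to 26044 CPM in neurons. The 7 fat body markers summed to 18962 to 92334 CPM in neuroblasts and 7.77 to 13316 CPM in neurons. Their part in the levels of the 10 genes was not tested.

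**Figure D2:**
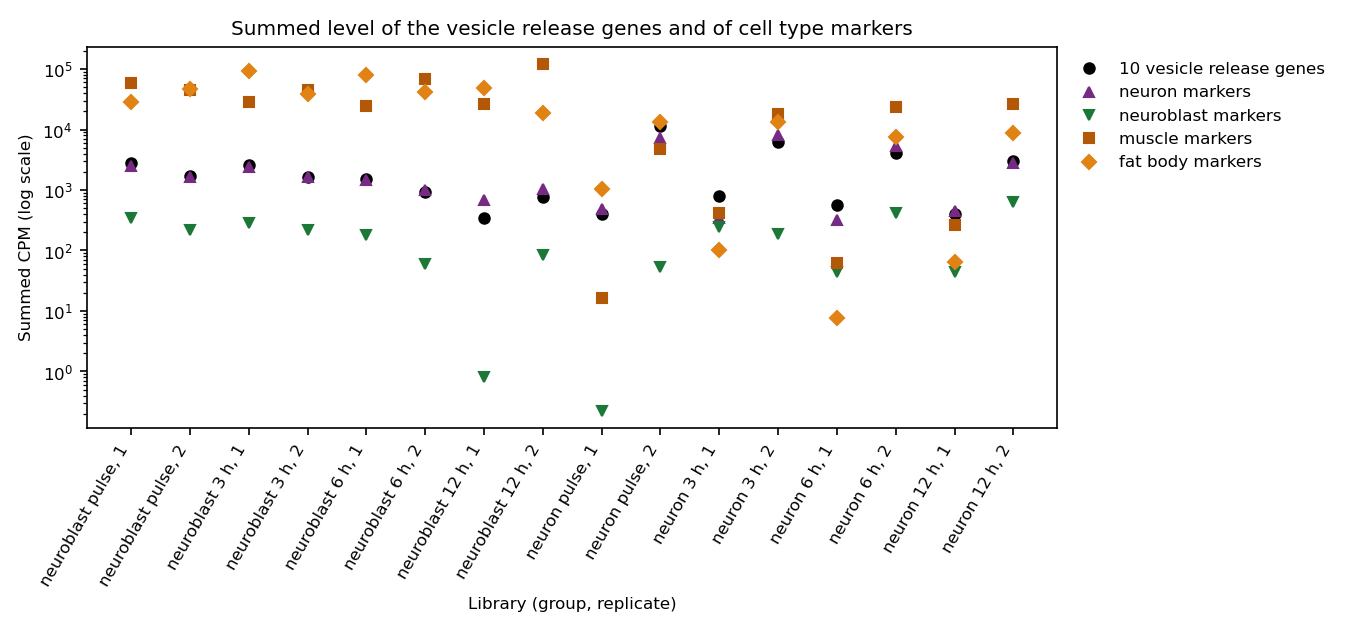
Summed CPM (log axis) of the 10 vesicle release genes and of 4 marker lists in each of the 16 libraries, 1 point per list and library. In neuroblast libraries the 10 genes run from 341 to 2805 CPM and the neuron markers from 692 to 2460.2 CPM, and muscle and fat body markers exceed both in every neuroblast library.

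The labelled cell types were checked against marker lists. The 10 neuron markers (elav, fne and others, none of them among the 10 genes described) summed to 692 to 2460.2 CPM in neuroblast libraries and 323 to 8019 CPM in neuron libraries. The 10 neuroblast markers (dpn, ase and others) summed to 0.814 to 341 CPM in neuroblasts, with up to 8 of 10 at 0 counts, and to 0.226 to 628 CPM in neurons, with up to 7 of 10 at 0. By edgeR 0 neuron and 0 neuroblast markers differed between the cell types over the 4 time points, with 1 and 0 at an unadjusted p under 0.05. The fat body markers Fbp2 and Lsp1alpha were lower in neurons (edgeR adjusted p = 0.00344 and 0.00355). Neuron markers were thus measured in both sets of libraries, and neuroblast markers did not tell them apart.

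In neuron libraries the 2 replicates lay far apart for most of the 10 genes. The summed level in replicate 1 was 395 CPM at the pulse and 795, 574 and 402 CPM after 3, 6 and 12 h. In replicate 2 it was 11496, 6256, 4070.4 and 3044 CPM. Replicate 2 was higher at each time point and was lower at each later one, while replicate 1 ended close to where it began. As CPM of nuclear counts the sums were 3516, 5799, 7275 and 4772 in replicate 1 and 11822, 6590, 4408 and 3454 in replicate 2, so that from 3 h of chase the sums of the replicates came within a factor of 2 of each other. Single genes did not all do so, as brp was at 58.8 and 569 after 3 h and Rab3 at 2.30 and 345 after 6 h. The median difference of replicates was 6.20 on the log2 scale of CPM at the pulse and 3.58, 2.96 and 3.40 at 3, 6 and 12 h, against 3.59, 2.99, 3.28 and 3.66 over all genes.

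The 2 neuron pulse libraries differed in which genes they held. Replicate 1 had at least 10 counts for 4 of the 10 genes (Syt1, brp, cac and cpx) and replicate 2 for all but Snap25. unc-13 had 2 counts in replicate 1 and 8471 CPM in replicate 2, where it was the gene with rank 8 by counts. brp went the other way, with 303 CPM in replicate 1 and 10.1 CPM in replicate 2. nSyb, whose regulatory region drives CD:UPRT in these cells, had 4 and 749 counts at the pulse, and 4640 and 115378 after 3 h.

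After labelling ended, SNARE genes followed separate courses in neurons. nSyb had 0.0903, 46.9, 80.7 and 57.4 CPM in replicate 1 and 3.55, 648, 677 and 202 CPM in replicate 2, higher in every chase library than in either pulse library. Syx1A had 0.0226, 22.5, 32.9 and 12.4 CPM in replicate 1 and 944, 678, 179.8 and 234 CPM in replicate 2. Snap25 had 0, 0.404, 0.307 and 0.238 CPM in replicate 1 and 0, 0, 14.5 and 61.2 CPM in replicate 2. Snap25 was the only one of the 10 without a count in either neuron pulse library.

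Among the regulators, Syt1 had 90.8, 75.9, 61.8 and 19.4 CPM in neuron replicate 1 and 30.1, 805, 350.1 and 265 CPM in replicate 2. cpx had 1.04, 132, 23.9 and 52.1 CPM in replicate 1 and 36.1, 1240.4, 980.3 and 544 CPM in replicate 2. Both genes peaked at 3 h in replicate 2, and for cpx the 2 libraries at 12 h lay above both pulse libraries. This was so for 3 of the 10 genes (nSyb, Snap25 and cpx) and for 35.4% of 14140 genes with at least 10 counts over the neuron libraries, close to the share among all genes.

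Active zone genes were highest at the pulse or at 3 h in neuron replicate 2. unc-13 had 0.0451, 401, 123 and 47.4 CPM in replicate 1 and 8471, 689.5, 440.2 and 866 CPM in replicate 2. cac had 0.271, 36.7, 66.8 and 78.3 CPM in replicate 1 and 1489, 1252, 518 and 234 CPM in replicate 2. brp had 303, 8.05, 169 and 89.3 CPM in replicate 1 and 10.1, 539.9, 461 and 357 CPM in replicate 2. cac thus rose at each step in replicate 1 and fell at each step in replicate 2. Rim had 0.158, 69.8, 15.7 and 16.6 CPM in replicate 1 and 229, 69.5, 131 and 189.9 CPM in replicate 2. Rab3 had 0, 1.14, 0.181 and 28.5 CPM in replicate 1 and 283, 333, 319 and 90.8 CPM in replicate 2.

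The slope on hours of chase in neurons passed the threshold for 0 of the 10 genes and 0 of 11800 genes (0%) by edgeR. At an unadjusted p under 0.05 there were 0 of the 10, beside 1225 of 11800 genes. DESeq2 called 6 of 10, all falling, beside 11.7% of genes. Apart from Snap25, whose fitted slope rests on libraries at 0, slopes ran from -0.63 log2 per hour for unc-13 (SE 0.35, edgeR adjusted p = 0.526) to 0.04 for nSyb (SE 0.47, adjusted p = 0.998), and the latter was -0.16 under DESeq2 size factors. The median of the 10 was -0.32 against 0.21 over all genes. Of the 10, 8 were below 0, while 66.3% of all genes tested were above 0. The TMM factors of this fit went from 0.213 and 0.168 at the pulse to 0.770 and 6.32 at 12 h. Here too a slope is a change relative to other genes and not a fall in CPM. cpx (-0.10) was among the 8, though both its 12 h libraries lay above both pulse libraries in CPM. For the others of the 8 the pulse and 12 h libraries overlapped in CPM. With Snap25 libraries under 3 counts set to 3 counts, its least-squares slope on log2 CPM, without TMM scaling, was 0.61. Snap25 is the highest of the 10 either way, so this setting cannot move the median. Without replicate 1, which leaves 1 library per time point, the slope of unc-13 was -0.61. Without replicate 2 the slope of unc-13 was -0.06 and the median of the 10 was 0.14. Leaving out neuron pulse replicate 2 alone gave -0.08 for unc-13 and -0.09 for the median of the 10.

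The difference of slopes, neurons minus neuroblasts, passed for 0 of the 10 genes by edgeR, beside 73 of 12787 genes (0.571%). An unadjusted p under 0.05 was reached by 0 of the 10 and by 1837 of 12787 genes. DESeq2 called 3 of 10 (Syt1, unc-13 and cpx, all lower in neurons) beside 15.2% of genes. Snap25 aside, differences ran from -0.31 log2 per hour for unc-13 (SE 0.30, edgeR adjusted p = 0.681) to -0.05 for nSyb (SE 0.44). The median of the 10 was -0.14 and that of all genes 0.47. It was -0.48 without replicate 1 and 0.56 without replicate 2.

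**Figure D3:**
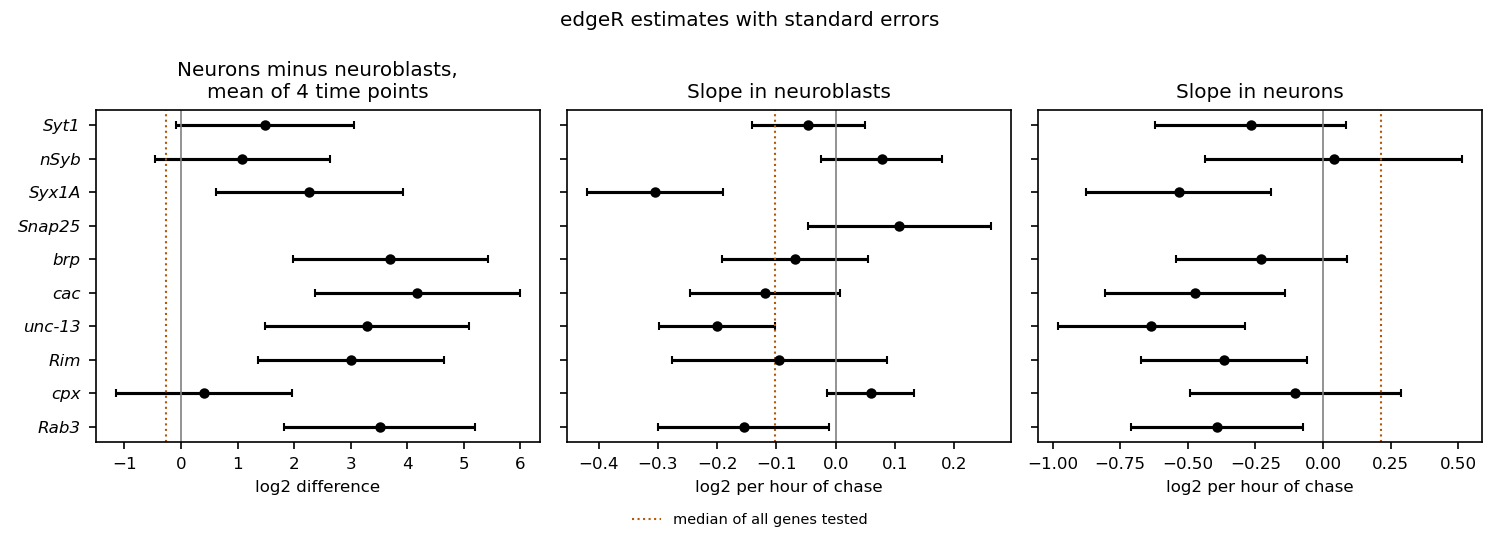
edgeR estimates for each gene, with log2 differences on the left and log2 per hour of chase in the middle and on the right. Bars are standard errors derived from the F statistic, and the dotted line is the median of all genes tested. Snap25 is left out where its neuron pulse libraries at 0 enter the fit. Most level differences lie above the median of all genes (-0.27), and slopes in neurons below theirs (0.21), with standard errors of the same order as the estimates.

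Levels in the 2 cell types were compared over all time points. On average over the 4 groups, 9 of the 10 genes were higher in neurons on the TMM scale, beside 47.4% of all genes tested. The TMM factors of this fit were 0.140 to 2.78 in neuron libraries and 0.436 to 3.62 in neuroblast libraries. A difference on this scale is thus relative to other genes. The mean CPM of cpx, 1 of the 9, was 376 in neurons and 382 in neuroblasts. The others of the 9 had the higher mean CPM in neurons. By edgeR 0 of the 10 passed the threshold, beside 183 of 12787 genes (1.43%). The differences, neurons minus neuroblasts, were 4.17 log2 for cac (SE 1.8, edgeR adjusted p = 0.206), 3.70 for brp (SE 1.7, adjusted p = 0.245), 3.51 for Rab3 (SE 1.7, adjusted p = 0.263), 3.30 for unc-13, 3.00 for Rim, 2.27 for Syx1A, 1.49 for Syt1, 1.09 for nSyb and 0.40 for cpx (SE 1.5 to 1.8). Snap25 was lower, with -5.88 between group means of log2 CPM once libraries under 3 counts were set to 3 counts. Unlike the other values, this one has no TMM scaling. The median of the 10 was 2.63 and that of all genes -0.27. Snap25 is the lowest of the 10 with or without libraries set to 3 counts, so this setting cannot move the median. Of the 10, 4 (Snap25, brp, cac and Rab3) had an unadjusted p under 0.05 by edgeR, beside 2157 of 12787 genes. DESeq2 called 7 of 10 beside 22.1% of genes.

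The calls depended on the libraries that stand apart. Without neuron replicate 1, a setting chosen after the data were seen, edgeR called 5 of the 10 genes higher in neurons (cac, 4.79 log2, adjusted p = 4.75e-05; Rab3, 4.30; unc-13, 3.87; Rim, 3.51; Syx1A, 3.21) beside 5.01% of 14052 genes. The neuron groups then have 1 library each, which is assumed to vary like the neuroblast libraries. Without the sparse neuroblast 12 h library as well, 8 of 10 passed, Snap25 in the other direction, beside 9.13% of 14060 genes. Without neuron pulse replicate 2, the median of the 10 was 0.12, and Syx1A (-0.92) and unc-13 (-0.45) changed sign. Without replicate 2 at every time point cpx (-1.23) and Rab3 (-2.93) did.

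Neuron libraries were set against the neuroblast libraries of the same time point. In CPM, neuron replicate 1 was above both neuroblast libraries for 1, 0, 1 and 3 of the 10 genes at the pulse, 3, 6 and 12 h, and replicate 2 for 5, 7, 8 and 9. As CPM of nuclear counts these were 2, 6, 7 and 9 genes for replicate 1 and 5, 7, 8 and 9 for replicate 2. Shares over all genes were not worked out for single neuron libraries, so these counts do not set the 10 genes apart. As CPM of nuclear counts the summed level of the 10 genes was lower at each later time in neuron replicate 2. In neuroblasts this sum went from 3215 and 1937 at the pulse to 388 and 864 at 12 h, the former in the sparse library. At the pulse 0 of the 10 genes had both neuron libraries above both neuroblast libraries, beside 0.798% of 14166 nuclear genes with at least 10 counts. After 3 h there were 4 (Syt1, nSyb, cac and cpx, beside 7.49% of genes), and after 6 h 6 (Syt1, nSyb, brp, cac, unc-13 and Rim, beside 10.2%). After 12 h there were 9, all but Snap25, beside 30.8% of genes. The scale of nuclear counts was added after the data were seen, and these counts carry no test.

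At 12 h nSyb had 682 and 229.6 CPM of nuclear counts in neurons and 48.9 and 118 in neuroblasts. Syt1 had 230.1 and 301 in neurons and 69.9 and 45.5 in neuroblasts. cpx had 619 and 618 in neurons, the closest pair of replicates of the 10 genes, and 267 and 313 in neuroblasts. For these 3 genes both neuroblast libraries held at least 475 counts. unc-13 had 563 and 982 in neurons and 1.54 and 115 in neuroblasts, and brp 1062 and 405 in neurons and 0.206 and 66.1 in neuroblasts. Snap25 had 2.82 and 69.5 in neurons and 0 and 74.4 in neuroblasts, and its groups overlapped.

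**Figure D4:**
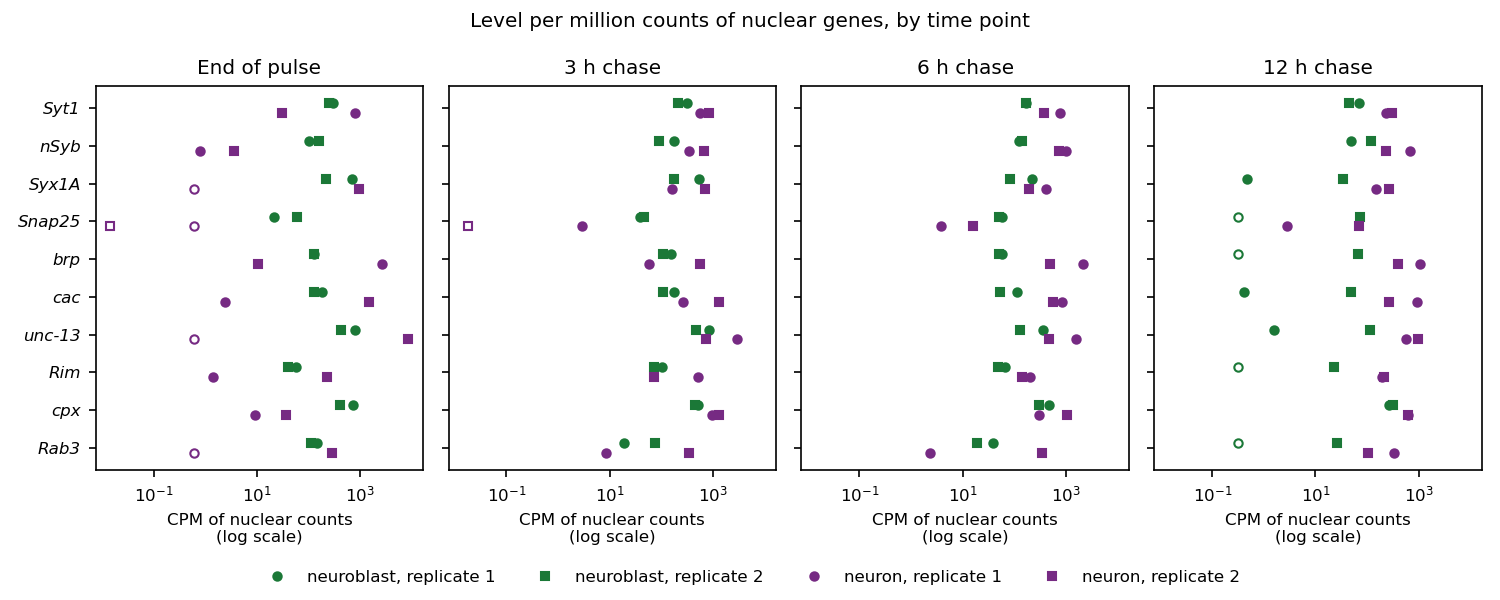
CPM of nuclear counts of each gene (log axis), with 1 panel per time point and 1 point per library. Green is neuroblast, purple is neuron, circles are replicate 1, squares are replicate 2, and open symbols at the level of 3 counts are libraries below 3 counts. At the pulse 0 of the 10 genes have both purple points to the right of both green ones, and at 12 h both lie to the right of them in 9 of the 10 genes.

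At the end of the pulse the difference between cell types was not resolved. edgeR called 0 of the 10 genes and 0 of 12787 genes (0%). At an unadjusted p under 0.05 there were 0 of the 10, beside 1032 of 12787 genes. DESeq2 called 8 of 10 beside 14.4% of genes. The median of the 10 was 4.55 log2 against -6.09 over all genes. Snap25 stays the lowest of the 10 when set to its bound below, so that bound cannot move the median. Of the 10, 7 were above 0, beside 19.3% of all genes tested. The TMM factors were 0.140 and 0.141 in the neuron pulse libraries and 2.46 and 3.62 in the neuroblast pulse libraries. Syt1, 1 of the 7, was at 2.36 log2, although its mean CPM was 60.5 in neurons and 242 in neuroblasts. The others of the 7 had the higher mean CPM in neurons. The 2 neuron pulse libraries held at least 10 counts for only 921 and 2291 genes. How far the -6.09 rests on genes with few counts there was not tested. unc-13 had the highest value, 7.24 (SE 4.3, edgeR adjusted p = 0.390), and without neuron pulse replicate 2 it was -7.94. Snap25 averaged 36.0 CPM in the neuroblast pulse libraries, at least 532-fold higher than the 0.0677 CPM that 3 counts make in the shallower neuron pulse library. As CPM of nuclear counts the bound is at least 67.7-fold, from a mean of 40.8 against 0.603. Both bounds cover counting error in these libraries and do not limit the difference between the cell types, since at the neuron pulse Rab3 had 0 counts in replicate 1 and 283 CPM in replicate 2, and unc-13 had 2 counts and 8471 CPM. Without neuron replicate 1, 5 of the 10 genes passed (Syx1A, cac, unc-13, Rim and Rab3) beside 5.07% of genes, and 5 did beside 11.5% of genes without the sparse neuroblast library as well.

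Single transcripts of these genes were far less steady than the genes. In neuroblasts the 10 genes reached 10 counts in both replicates of a group 34 times and in only 1 replicate 6 times, and in neurons 33 and 6 times. The share in only 1 replicate was 15.4% in neurons against 65.9% for all genes, and it was 45.6% for all genes in neuroblasts. For transcripts of the 10 genes these shares were 76.7% in neuroblasts and 66.1% in neurons, against 63.0% and 79.3% for all transcripts. kallisto splits reads between isoforms that share exons, so transcripts of a gene are not independent, and the 2 annotated Snap25 transcripts have the same length of 2233 bases.

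By total counts the leading transcripts were FBtr0088257 of Rab3 (98.4% of the gene), FBtr0307325 of cac (81.3%), FBtr0084588 of Syx1A (76.8%), FBtr0331461 of nSyb (68.5%), FBtr0111143 of Snap25 (66.0%), FBtr0345331 of Syt1 (50.2%), FBtr0336714 of Rim (49.3%), FBtr0336693 of brp (43.3%), FBtr0089247 of unc-13 (42.9%) and FBtr0100499 of cpx (37.1%). These totals are dominated by the deep neuron replicate 2. FBtr0307325 of cac reached 10 counts in both replicates of 0 of the 8 groups, whereas FBtr0332220 of Syt1, named after its values were seen, did so in all 8. FBtr0307325 made 314307 of the cac counts in neuron pulse replicate 2 and 222827 in 3 h chase replicate 2, and had under 1 count in each library of neuron replicate 1.

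The makeup of Syx1A differed between libraries. Of its 3 transcripts, FBtr0392904 (4164 bases), singled out after its values were seen, made 84.9% to 100% of the counts in the 7 neuroblast libraries with at least 10 counts of the gene. The remaining one, 12 h chase replicate 1, had 4.50 counts. In neurons FBtr0084588 (2385 bases) made 99.9% at the pulse in replicate 2, where replicate 1 had 1 count, and 86.2% and 77.8% after 3 h. After 6 h its share was 0% and 81.1%, and after 12 h the longer FBtr0392904 made 99.9% and 100%. FBtr0084588 also made 0% and 15.1% in the 2 neuroblast pulse libraries. The Wilson 95% intervals of the Syx1A shares are at most 2.95 percentage points wide in libraries with at least 10 counts. These intervals cover counting error only, and estimated counts are not independent molecules. The shares were not tested. FBtr0392904 is as long as the whole Syx1A gene, 4164 bases, so no intron is removed from it. What unspliced RNA, or the eIF4EHP exons that overlap Syx1A on the same strand, add to its counts was not tested.

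**Figure D5:**
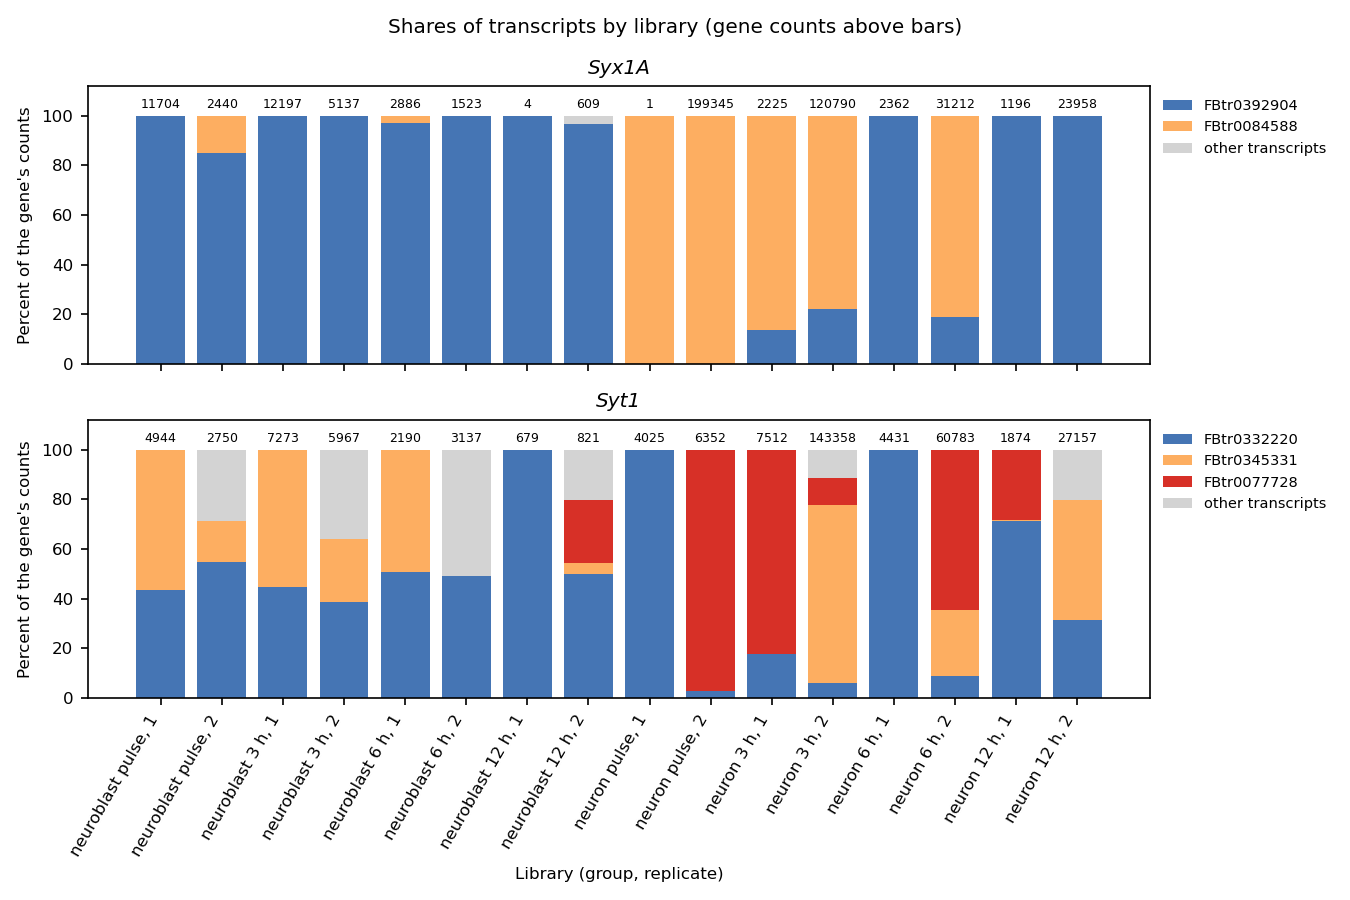
Percent of the counts of Syx1A (top) and Syt1 (bottom) assigned to named transcripts in each of the 16 libraries, with the counts of the gene written above each bar. FBtr0392904 fills most of the Syx1A bars of neuroblasts, where 1 bar rests on 4.50 counts, and of neurons at 12 h, FBtr0084588 most of those of neurons at the pulse and 3 h, and Syt1 bars differ between replicates.

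In transcript fits, edgeR called 0 member transcripts in the slopes in neuroblasts (44 tested, 2 at an unadjusted p under 0.05, beside 0.0617% of all transcripts called) and 0 in neurons (51 tested, 8 at an unadjusted p under 0.05, beside 0.0331%). Over all transcripts, 1107 of 16202 in neuroblasts and 2122 of 18103 in neurons were at an unadjusted p under 0.05. edgeR called 0 of 60 in the levels over 4 time points and 0 of 60 at the pulse (10 and 9 at an unadjusted p under 0.05, beside 0% of all transcripts in both). That unadjusted p was reached by 2681 and 542 of 23032 transcripts. Many of these level fits gave no usable spread (FBtr0084588 of Syx1A, 8.82 log2 with an SE of 21990 over the time points). Several pulse estimates were 5.13e-15 log2. For such transcripts the lack of a call is not informative. The same occurred in the difference of slopes, where FBtr0089247 of unc-13 had an SE of 769474. The difference of slopes called 4 of 60, beside 3.09% of 23032 transcripts. One was FBtr0077728 of Syt1 (-1.67 log2 per hour, SE 0.52, edgeR adjusted p = 0.0447), which had 0, 0, 0 and 1 counts in neuroblast replicate 1, 0, 0, 0 and 207 in replicate 2, 1, 6186, 0 and 531 in neuron replicate 1 and 6169, 15606, 39270 and 0 in replicate 2. The other 3 were cac transcripts FBtr0474239, FBtr0474240 and FBtr0474241, with identical values (2.25, SE 0.61, adjusted p = 0.0187 each). They had 187 counts each in neuroblast pulse replicate 1, 196 in neuron 12 h chase replicate 1 and 0 in the other 14 libraries, so these calls rest on 1 library of each cell type.

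The wider vesicle cycle, 45 other genes for transmitter loading, docking and endocytosis, gave 0 calls by edgeR in each of the 5 gene comparisons, with 2, 1, 2, 6 and 2 genes at an unadjusted p under 0.05 (slope in neuroblasts, slope in neurons, their difference, level over 4 time points, level at the pulse). On the TMM scale their median level difference was 0.83 log2 in favour of neurons, with 32 of 45 above 0, against 2.63 and 9 of 10 for the release genes. Their median slope was -0.10 in both cell types. The 10 neuron markers, of which VGlut is also in the wider list, had a median level difference of 1.89 with 8 of 10 above 0, and the 10 neuroblast markers one of 1.41 with 8 of 10 above 0.

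The 10 genes did not vary as 1 unit over the 16 libraries. The correlation of each gene with the mean of the others (log2 CPM, TMM-scaled) was 0.93 for Syx1A, 0.90 for cac, 0.89 for Rim, 0.87 for unc-13 and 0.86 for Rab3, and 0.48 for nSyb, 0.47 for cpx, 0.14 for brp, 0.04 for Snap25 and -0.11 for Syt1. The genes outside the list closest to the mean of the 10 were Hipk (Pearson r = 0.97, a protein kinase), Imp (0.97, an RNA-binding protein) and Nrx-1 (0.97, the synaptic adhesion protein neurexin) among 12777 genes. These values share libraries and depth, and describe the libraries only.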

How the data were processed

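Tagged RNA of 16 libraries from larval brains was sequenced after a 12 h pulse of 5EC and 0, 3, 6 or 12 h of chase. The authors trimmed reads with Trimmomatic and deposited estimated counts per transcript from kallisto on BDGP6, without normalization; tool versions are not given in the sources used here. The 30944 transcripts in both tables were summed per gene with the Ensembl release 115 annotation, which leaves out 105 transcripts of the neuroblast table (at most 0.104% of a library) and keeps 132 without a gene as rows of their own. Rounding by the authors left 120 very high values with few digits, 0 of them in the 10 genes.

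Sums were rounded to whole numbers, filtered with filterByExpr, scaled by TMM and tested with edgeR 4.0.16 (quasi-likelihood test, R 4.3.3) in 5 comparisons: the slope on hours of chase in each cell type, the difference of these slopes, and the level in neurons against neuroblasts over 4 time points and at the pulse. Slopes in 1 cell type used its 8 libraries, and the rest used all 16. Benjamini-Hochberg adjustment ran over all genes or transcripts tested, at 0.05. Standard errors (SE) of edgeR estimates were derived as the absolute log2 estimate over the square root of the F statistic. DESeq2 1.42.0, other size factors, no filter, a replicate block, single transcripts and left-out libraries were alternatives. In a test on simulated neuroblast counts with 200 genes changed by 0.25 log2 per hour, edgeR found 93.5% of them where replicates varied with a CV of 0.4 and 0% at a CV of 1. The fitted median CV was 1.79 over all genes and 1.01 over the 10 genes in that comparison.

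The 10 genes and all gene lists were chosen with earlier results of these data known. The text names all 10 genes, their leading transcripts by total counts, up to 3 transcripts per comparison and direction past the threshold, up to 5 such list genes, and the 3 other genes closest in pattern. No sequences are shown.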

Additional observations from a re-analysis of the deposited data

Results flagged for a closer look

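The difference of slopes between cell types passed the threshold for 4 single transcripts. For FBtr0077728 of Syt1 it was -1.67 log2 per hour, and for FBtr0474239, FBtr0474240 and FBtr0474241 of cac it was 2.25 each. The cac transcripts share 1 set of counts, so they count as 1 observation. Of 47 alternative settings of FBtr0077728 and FBtr0474239, 42 left them short of the threshold.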

How the results depend on the processing

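Of 491 alternative values of the single gene effects named in the text (10 genes for the slope in neuroblasts, 9 without Snap25 for the level over 4 time points, nSyb and unc-13 for the slope in neurons and the difference of slopes, unc-13 for the pulse), 436 kept the direction and the side of the threshold, 29 passed it and 26 changed direction. DESeq2 called 3, 6, 3, 7 and 8 of the 10 genes (slope in neuroblasts, slope in neurons, their difference, level over 4 time points, level at the pulse) where edgeR called 0. In the same order it called 11.4%, 11.7%, 15.2%, 22.1% and 14.4% of all genes tested. Single transcripts gave calls in 2 of the 10 genes for the difference of slopes, beside 3.09% of all transcripts tested. The pulse libraries alone gave 1 of the 10 (Snap25), beside 4013 calls over all genes. With libraries left out, the counts of the 10 genes called ran from 0 to 2, 0 to 1, 0 to 0, 0 to 8 and 0 to 5, and those over all genes are given below. The cause of these changes was not tested.

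Under DESeq2 size factors the slope of Syt1 in neuroblasts was 0.19 and that of nSyb in neurons -0.16, and DESeq2 itself gave 0.19 and -0.16. With libraries left out, slopes in neuroblasts ran from -0.51 to 0.016 for Rim, -0.39 to 0.19 for Snap25 and -0.63 to 0.026 for brp, and the slope of nSyb in neurons from -0.13 to 0.37. Differences of slopes ran from -0.29 to 0.32 for nSyb and -0.77 to 0.56 for unc-13. Level differences ran from -2.93 to 7.25 for Rab3, -0.92 to 4.08 for Syx1A, -1.23 to 2.35 for cpx and -0.45 to 5.05 for unc-13, whose pulse difference ran from -7.94 to 10.95.

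Over all genes, 60, 0, 73, 183 and 0 calls became 1143, 1375, 1948, 2828 and 1836 under DESeq2. edgeR with DESeq2 size factors gave 964 for the slope in neuroblasts, 204 for the difference of slopes, 408 for the level over 4 time points and 22 at the pulse. Without a filter the slope in neuroblasts gave 94, the difference of slopes 9 and the pulse 3, 12 h against the pulse alone gave 15 in neuroblasts, and the pulse libraries alone gave 4013. With libraries left out the counts ran from 0 to 182, 0 to 3175, 0 to 205, 3 to 1284 and 0 to 1615.

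The labels do not say that equal replicate numbers pair libraries, and within a cell type the deviations of same-numbered libraries correlated at 0.096 to 0.199 in neuroblasts and 0.046 to 0.302 in neurons. With the replicate block 0 of the 10 genes passed in any of the 5 comparisons, nSyb turned to 0.057 in the difference of slopes, and 145 genes were called for the slope in neuroblasts and 0 for the difference of slopes. Leaving out replicate 1 or 2 throughout was not run for the pulse level. Neuron pulse libraries with at least 10 counts for 921 and 2291 genes limit what that comparison can show.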
